A study of Mus musculus with 34 samples.

Results

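Metalloproteinases and their inhibitors were followed in mouse spinal cord after injury. The set holds every gene whose symbol in the array's annotation is Mmp, Adam or Adamts with a number, or Timp with a number: 4 Timp, 18 Mmp, 28 Adam and 15 Adamts genes. These 65 genes are among 18193 genes with a probe set of their own on the array. Of the 65, 35 had signal above background (over log2 4 on at least 4 arrays) and were tested: 4 Timp, 12 Mmp, 10 Adam and 9 Adamts genes.

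The tissue was spinal cord of wild-type (WT) mice and of trkB.T1 null mice (knockout, KO), which lack the truncated form of the receptor trkB that Ntrk2 encodes. In either genotype the cord was taken after sham surgery, in which it was not injured, or on day 1, 3 or 7 after injury. Each of the 8 groups had 4 Affymetrix arrays, except WT day 1 and KO day 3, which had 5, for 34 in all. The labels name no strain, sex, age, type of lesion or level of the cord. The 3 injured groups of a genotype share its sham arrays, and no sham group carries a day. Whether arrays stand for separate animals is not in the labels, and p-values therefore reflect the spread between samples alone.

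Metalloproteinases use a zinc ion to cut proteins. Matrix metalloproteinases (MMPs) cut collagens, laminins and other matrix proteins, ADAMs shed receptors and ligands from the cell surface, and ADAMTS enzymes cut proteoglycans such as aggrecan and versican or process procollagen. TIMPs bind these enzymes in their active site and block them. In the injured cord the families are known for opening the blood-spinal cord barrier, for leukocyte entry, and for remodelling the scar and its chondroitin sulphate proteoglycans.

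All values are log2 levels of a gene's brightest probe set, and a level under 4 is not well above background. Values after ± are standard errors (SE) for log2 differences and SDs for groups. Where an array of the lower group read under 4, a fold change is given as "at least", with all values under 4 set to 4. Fewer cells of a type and less RNA per cell cannot be told apart in bulk tissue.

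Ntrk2 was measured first as a check of the labels, on the pair of its probe sets that are low in KO. All WT arrays read 8.65 or more on the first and 10.01 or more on the second, and the KO arrays at most 2.83 and 4.94, with 1 exception. That exception, labelled KO sham replicate 2, gave 8.59 and 9.46, which goes against its label, and it is named where it decides a result. In 3 injured arrays the mean of the neutrophil marker genes stood well above the rest of the group. It was 9.89 on WT day 1 replicate 5 against at most 7.62, 10.43 on WT day 7 replicate 3 against at most 8.25, and 11.04 on KO day 3 replicate 3 against at most 9.22. On WT day 3 replicate 2 the red blood cell gene Alas2 read 8.55 against at most 5.30. The mean of 8 skeletal muscle genes ran from 3.28 to 13.76 over the arrays and was highest on KO day 3 replicate 3. It also differed between groups. It was 7.88 to 10.71 in KO sham and lower, without overlap, at KO day 1 (3.42 to 6.70) and KO day 7 (3.96 to 5.19). KO day 3 (4.61 to 13.76) overlapped with KO sham, and WT sham (3.40 to 9.09) overlapped with each injured WT group. The part of muscle in the members' changes was not tested. Leaving out the 5 arrays that stand apart left the counts of members below within 1.5 times of those printed. These were KO sham replicate 2, WT day 1 replicate 5, WT day 3 replicate 2, WT day 7 replicate 3 and KO day 3 replicate 3. Leaving them out does not remove the muscle difference between KO groups.

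After injury more of the tested members rose than fell in each of the 6 comparisons with sham, while among all 11993 genes tested more fell than rose. Timp1, Adam8, Mmp19, Mmp12, Adamts12 and Mmp3 were under 4 on every sham array and passed the filter only through injured arrays. In these genes a fall could not be seen, so the filter favours rises in the counts here and in the families below. How many of all genes passed in the same way was not counted. In WT, 14 of 35 rose and 6 fell at day 1, where 27.1% of all genes rose and 32.5% fell. At day 3, 18 rose and 9 fell, beside 29.5% and 37.4% of all genes. At day 7, 19 rose and 6 fell, beside 25.8% and 33.3%. In KO, 13 rose and 5 fell at day 1, beside 23.7% and 27.3% of all genes. At day 3 in KO, 19 rose and 10 fell, beside 30.9% and 38.8%. At day 7 in KO, 16 rose and 5 fell, beside 23.5% and 31%. Rises of at least 2-fold were made by 7, 15 and 15 members in WT at days 1, 3 and 7 (8.34%, 11.9% and 10.7% of all genes) and by 8, 15 and 12 in KO (7%, 12.4% and 9.71%). Falls of at least 2-fold were made by 2, 1 and 1 in WT (4.06%, 7.65% and 4.03%) and by 1, 5 and 1 in KO (3.08%, 9.84% and 2.06%). The members' median log2 difference was 0.40, 0.61 and 0.79 in WT and 0.26, 0.66 and 0.40 in KO, and the median of all genes lay between -0.06 and -0.05 in all 6 comparisons. Without the library labelled KO sham replicate 2, the members that rose in KO numbered 10, 19 and 15.

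In all 6 comparisons 9 members rose, namely Timp1, Mmp14, Mmp19, Adam8, Adam9, Adam10, Adam12, Adam17 and Adamts1. How many of all genes rose in all 6 was not counted, and comparisons of a genotype share its sham arrays. The count is therefore not shown to be particular to the members. The same holds for the members below that fell in all 6 or passed in none. Without the library labelled KO sham replicate 2, the array whose Ntrk2 goes against its label, 5 of the 9 kept all 6 calls: Mmp14, Adam10 and Adam17 were lost at KO day 1 and Adamts1 at KO day 7. When any other single array was left out, 6 to 9 kept them, with 6 without KO day 1 replicate 1. Of the other probe sets of Adam10 and Adam17, 2 for each gene, 0 passed at KO day 1. Adam22 and Adamts3 fell in all 6, though the other probe set of Adam22 did not pass at day 7 in either genotype. Mmp9, Mmp16 and Adamts6 passed in none. Adamts20 fell at days 1 and 3 in both genotypes and rose at day 7 in WT.

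**Figure D1:**
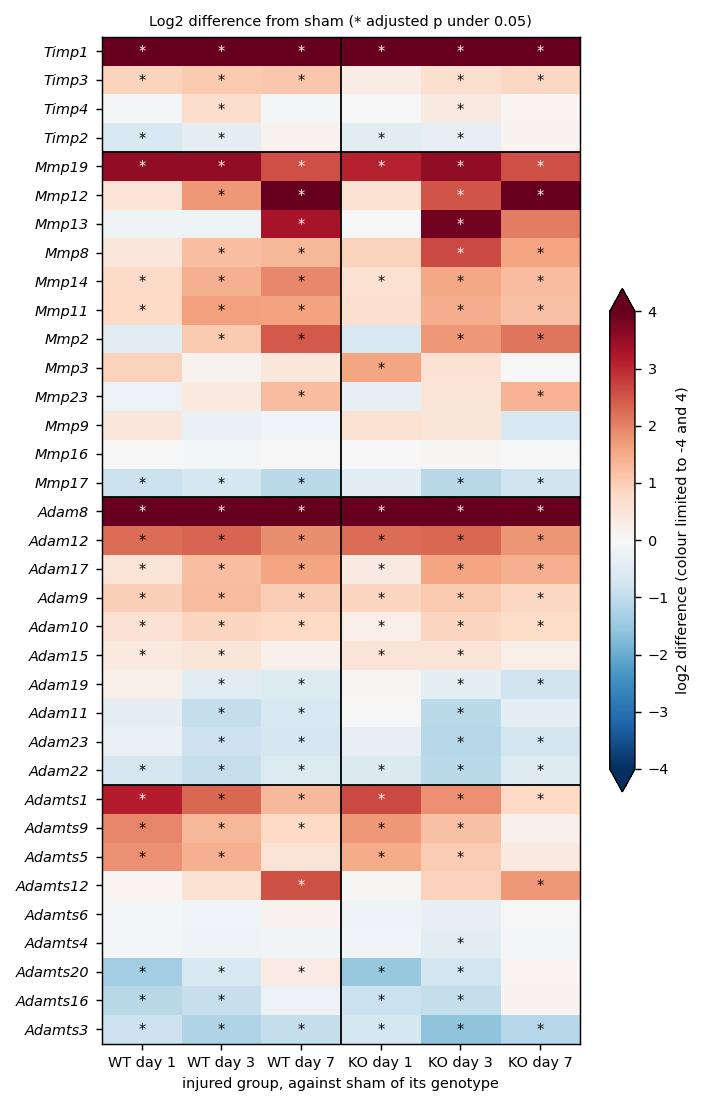
Log2 difference from sham of the 35 tested members (rows) in WT and KO at days 1, 3 and 7 (columns), coloured red for higher and blue for lower with the colour capped at 4 on either side, and starred where adjusted p was under 0.05. Timp1, Adam8 and Mmp19 are red in all 6 columns, Mmp12 turns red toward day 7, and Adam22 and Adamts3 are blue throughout.

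Among the inhibitors, Timp1, a secreted inhibitor of most MMPs that many cells induce in inflammation, had the largest rise of all members at days 1 and 3. On the WT arrays it read 2.29, 2.43, 3.61 and 2.29 after sham surgery, 10.99, 10.71, 10.53, 10.96 and 10.38 at day 1, 10.19, 11.18, 10.53 and 10.26 at day 3, with 8.24, 8.29, 8.49 and 8.53 at day 7. On the KO arrays it read 2.27, 2.17, 2.82 and 2.40 after sham surgery, 10.94, 10.49, 9.95 and 10.36 at day 1, 10.18, 10.19, 10.86, 10.93 and 10.27 at day 3, with 8.09, 8.09, 8.45 and 7.93 at day 7. Every sham array was under 4 and every injured array above 7.9, so injured and sham arrays did not overlap. In WT the rise was 8.06 ± 0.24 at day 1 (at least 105-fold, adjusted p = 1.64e-20), 7.89 ± 0.26 at day 3 (at least 93.1-fold) and 5.73 ± 0.26 at day 7 (at least 20.9-fold). In KO it was 8.02 ± 0.26, 8.08 ± 0.24 and 5.72 ± 0.26 (at least 86.5-, 89.8- and 17.6-fold). From day 3 to day 7, over both genotypes, Timp1 fell by 2.25 ± 0.18 on the log2 scale (adjusted p = 5.91e-11).

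Timp3 is bound to the matrix and also blocks ADAM17 and the aggrecanases. It read 9.37, 9.37, 9.997 and 9.36 on WT sham arrays, 10.30 to 10.63 at day 1, 10.33 to 10.85 at day 3 and 10.32 to 10.94 at day 7, with no overlap between sham and injured arrays. The WT rises were 0.90 ± 0.16, 1.03 ± 0.16 and 1.09 ± 0.16 (1.87-, 2.04- and 2.13-fold, adjusted p from 1.94e-05 to 2.68e-06). In KO, whose sham arrays read 10.02, 9.49, 9.98 and 9.88, the difference was 0.30 ± 0.16 at day 1 (adjusted p = 0.13), and the rises were 0.66 ± 0.16 at day 3 and 0.83 ± 0.16 at day 7. Timp4, the TIMP of brain and heart, rose at day 3 in both genotypes, by 0.70 ± 0.14 in WT (1.63-fold) and 0.37 ± 0.13 in KO (1.30-fold). At day 3 it read 11.29, 12.05, 11.19 and 11.20 in WT and 10.91 to 11.32 in KO, above every sham array of the same genotype (at most 11.00 and 10.87). At days 1 and 7 its difference from sham was between -0.05 and 0.08 in both genotypes and did not pass.

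Timp2, which blocks MMPs and, bound to MMP14, helps to activate proMMP2, depended on the probe set. By its brightest probe set it fell at day 1, by 0.60 ± 0.08 in WT and 0.45 ± 0.09 in KO, and at day 3, by 0.36 ± 0.09 and 0.34 ± 0.08, and it did not pass at day 7. Of the other 4 Timp2 probe sets, 3 fell at days 1 and 3 as well. The remaining one went the other way: it read 9.41 ± 0.25 on WT sham arrays, 9.52 ± 0.16 at day 1, 11.17 ± 0.13 at day 3 and 12.25 ± 0.13 at day 7 (SD). In KO it read 9.48 ± 0.08, 9.30 ± 0.14, 11.34 ± 0.29 and 12.05 ± 0.05. Its rise was 1.76 ± 0.12 in WT and 1.85 ± 0.12 in KO at day 3, and 2.84 ± 0.12 and 2.56 ± 0.12 at day 7 (adjusted over all probe sets above the filter, p from 1.40e-12 to 3.41e-17). The probe sets thus disagree, and no direction is given for Timp2 as a gene.

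**Figure D2:**
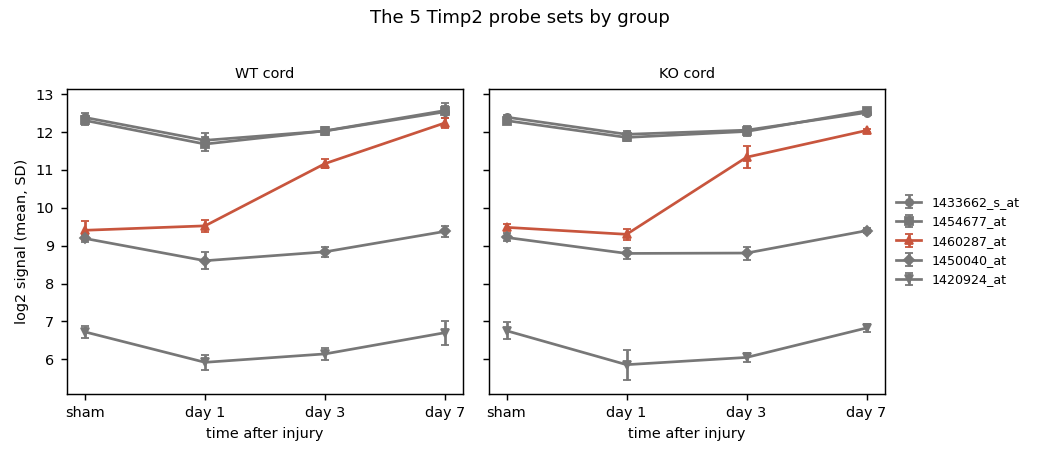
Mean and SD of log2 level of the 5 Timp2 probe sets in each of the 8 groups, 4 or 5 arrays a group. The probe set in red rises from 9.41 in WT sham to 12.25 at WT day 7 and from 9.48 to 12.05 in KO, while the other 4 dip at day 1 and return by day 7.

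Of the 12 MMPs tested, 3 rose and 1 fell at day 1 in WT, 6 rose and 1 fell at day 3, and 8 rose and 1 fell at day 7. In KO the counts were 3 and 0, 7 and 1, and 7 and 1. The rises at day 1 are 25% of the family in each genotype, near the 27.1% and 23.7% of all genes that rose, and at days 3 and 7 they are 50% and 66.7% in WT (all genes 29.5% and 25.8%) and 58.3% in KO (30.9% and 23.5%). The family's median log2 difference was 0.46, 0.71 and 1.47 in WT and 0.60, 1.49 and 1.31 in KO.

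Mmp19, a secreted MMP that cuts basement membrane proteins, had the largest rise of the MMPs that passed at day 1 in either genotype. At day 3 its rise was the same in WT and larger in KO. It read 2.61, 3.21, 3.26 and 3.18 on WT sham arrays, 6.87, 6.96, 6.22, 6.61 and 6.43 at day 1, 6.51, 6.48, 6.62 and 6.84 at day 3, with 5.71, 5.37, 5.74 and 5.74 at day 7. The KO arrays read 3.25, 3.35, 3.20 and 2.39 after sham surgery, 6.44, 6.40, 5.94 and 5.72 at day 1, 6.63, 6.38, 6.70, 7.03 and 6.22 at day 3, with 5.06, 5.91, 5.94 and 5.60 at day 7. All sham arrays were under 4 and all injured arrays above 5. In WT the rise was 3.55 ± 0.21 at day 1 and 3.55 ± 0.22 at day 3 (at least 6.13- and 6.12-fold), and 2.58 ± 0.22 at day 7 (at least 3.12-fold, adjusted p = 7.50e-11). In KO it was 3.08 ± 0.22, 3.54 ± 0.21 and 2.58 ± 0.22.

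Mmp14, the membrane-anchored MT1-MMP that cuts fibrillar collagen and activates proMMP2, rose at every time in both genotypes. It read 8.22, 8.02, 8.22 and 7.40 on WT sham arrays, 8.75 ± 0.24 at day 1 (SD, n = 5), 9.14 to 9.62 at day 3, with 9.98, 9.16, 9.64 and 10.79 at day 7. Sham and injured arrays did not overlap. The WT rises were 0.78 ± 0.23, 1.43 ± 0.24 and 1.93 ± 0.24 (1.72-, 2.69- and 3.80-fold), and the KO rises 0.60 ± 0.24, 1.54 ± 0.23 and 1.25 ± 0.24 (1.51-, 2.91- and 2.38-fold). The KO rise at day 1 had an adjusted p of 0.0367 and was lost without KO day 1 replicate 1, 2 or 4, KO sham replicate 4 or the library labelled KO sham replicate 2. Mmp2, gelatinase A and the enzyme that MMP14 activates, did not pass at day 1. It read 3.85, 4.94, 5.21 and 5.13 on WT sham arrays and 7.43, 6.39, 6.93 and 8.23 at day 7, and its rise was 1.03 ± 0.43 at day 3 and 2.47 ± 0.43 at day 7 (at least 5.39-fold, adjusted p = 2.00e-05). The WT call at day 3 (adjusted p = 0.0342) was lost without WT day 3 replicate 1 or 3 or WT sham replicate 1. In KO the rise was 1.73 ± 0.41 at day 3 and 2.14 ± 0.43 at day 7 (at least 3.29- and 4.39-fold). Mmp11, stromelysin-3, rose by 0.81 ± 0.29, 1.64 ± 0.31 and 1.60 ± 0.31 in WT and by 1.44 ± 0.29 and 1.16 ± 0.31 in KO at days 3 and 7. Its WT call at day 1 was lost without WT sham replicate 2, at 0.61. Mmp23, a small membrane MMP near background, did not pass at days 1 and 3 and rose by 1.25 ± 0.36 in WT and 1.38 ± 0.36 in KO at day 7 (at least 2.09- and 2.39-fold).

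Mmp12, macrophage elastase, had the largest rise of all members at day 7. It read 2.17, 2.17, 2.54 and 2.73 on WT sham arrays, 2.54 to 3.24 at day 1, 4.16, 2.54, 5.91 and 3.94 at day 3, with 10.01, 7.46, 7.92 and 9.40 at day 7. On KO arrays it read 2.17, 2.54, 2.73 and 2.54 after sham surgery, 2.99 to 3.20 at day 1, 6.71, 3.48, 6.79, 4.57 and 3.56 at day 3, with 8.68, 8.49, 8.93 and 8.90 at day 7. No array was above background at day 1, some were at day 3, and all were at day 7. The rise at day 7 was 6.29 ± 0.62 in WT (at least 25.9-fold, adjusted p = 1.36e-09) and 6.26 ± 0.62 in KO (at least 26.9-fold, adjusted p = 1.80e-09). At day 3 it was 1.73 ± 0.62 in WT (adjusted p = 0.0154), which fell to 1.14 and was lost without WT day 3 replicate 3, and 2.53 ± 0.59 in KO. From day 3 to day 7 it rose by 4.14 ± 0.43 over both genotypes (adjusted p = 9.91e-09). The mean of 12 microglia and macrophage marker genes, all above the filter, ran from 6.10 to 6.34 on WT sham arrays, 7.87 to 8.39 at day 1, 9.39 to 10.14 at day 3 and 10.06 to 10.44 at day 7. In KO it ran from 5.75 to 6.26, 7.34 to 8.10, 10.04 to 10.72 and 10.29 to 10.47. The marker mean was above every sham array on all injured arrays, as Adam8 was, while Mmp12 was still within background at day 1 and Adam8 was lower at day 7 than at day 3. Its part in the changes of Mmp12, Mmp14, Adam8 and Adam17 was not tested.

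**Figure D3:**
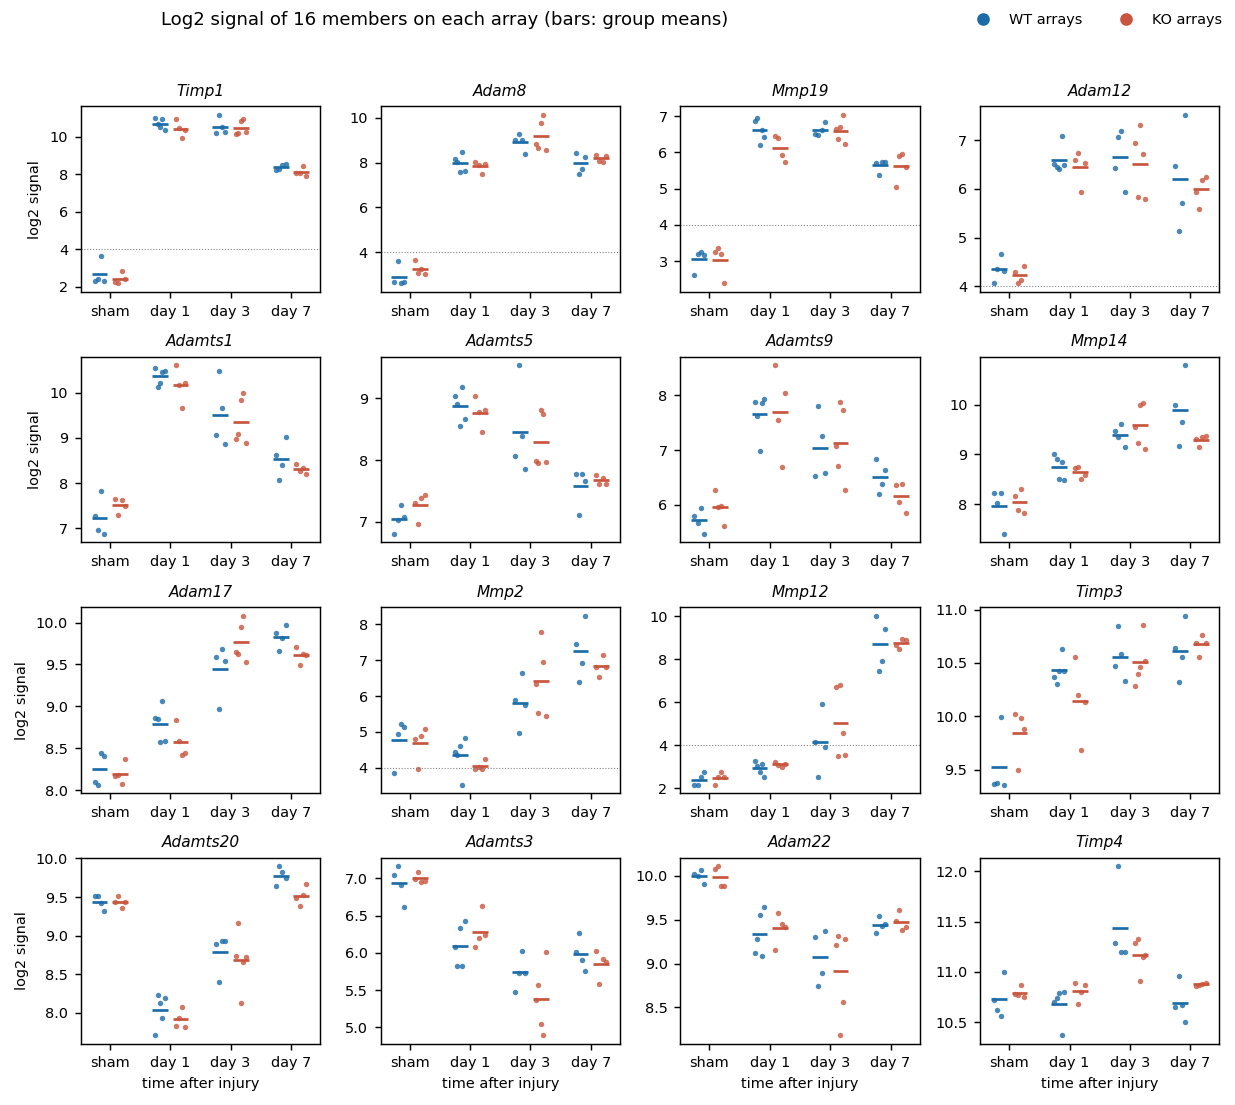
Log2 level of 16 members on each of the 34 arrays, by genotype and time. Points are arrays, bars are group means, and the dotted line at log2 4 marks the limit of background. Timp1 and Mmp19 are under 4 on all sham arrays and highest at days 1 and 3, Mmp12 is above background on all arrays only at day 7, and Adamts20 dips at day 1.

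Mmp3, Mmp12 and Mmp13 lie in a row of Mmp genes on chromosome 9, with Mmp1b, Mmp1a, Mmp10, Mmp8, Mmp20 and Mmp7. Of these 9 genes, Mmp3, Mmp8, Mmp12 and Mmp13 were above background. The promoters of Mmp3, Mmp12 and Mmp13 are shown because they hold the 7-base site of AP-1, a Fos and Jun factor, close to a start, while the genes differed in time. Those of Mmp8 and Mmp20 did not hold it. The sequences are the 100 bases before the annotated start in RefSeq, assembly GRCm38.p6, on the strand of the gene, with TGAGTCA or TGACTCA, the same site read from either strand, in capitals. They come from chr9:7445722-7445821 for Mmp3, chr9:7347274-7347373 for the second of 2 annotated starts of Mmp12 (the first had no match), and chr9:7272414-7272513 for Mmp13, all on the plus strand.
Mmp3: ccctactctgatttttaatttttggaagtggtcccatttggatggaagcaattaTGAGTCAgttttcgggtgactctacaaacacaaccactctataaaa
Mmp12: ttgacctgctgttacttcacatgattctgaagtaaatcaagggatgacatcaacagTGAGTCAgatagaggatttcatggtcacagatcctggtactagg
Mmp13: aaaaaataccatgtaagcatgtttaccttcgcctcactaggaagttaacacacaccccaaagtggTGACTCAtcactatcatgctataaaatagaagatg

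Counted from the start, the match began at base -46 in Mmp3, -44 in Mmp12 and -35 in Mmp13. In Mmp1b, Mmp1a, Mmp10 and Mmp7, which were not above background, it began at -93, -73, -63 and -63, in Mmp7 at the first of 2 annotated starts and not at the second. In the 250 bases before the start, 8 of 42 promoters of the 37 members matched in RefSeq held the site (19.0%), against 1466 of 32851 promoters of all genes (4.46%) and 3.25% of those of genes tested. These 8 were 7 genes of the row and Adam19. Among members above the filter, 4 of 27 promoters held it (14.8%). Of 11 promoters of members that rose at day 1, 1 held it, that of Mmp3. Of the 16 promoters of members above the filter that did not rise then, 3 did. With members under the filter included, 7 of the 31 other promoters did. A match describes the letters only, and the windows without one say nothing of the factor.

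Mmp3, stromelysin-1, was under 4 on all WT arrays. In KO it read 2.40 on each sham array and 5.08, 4.23, 2.44 and 4.14 at day 1, a rise of 1.57 ± 0.44 (at least 1.29-fold, adjusted p = 0.00412). The gene passed the filter on just 4 arrays, KO day 1 replicates 1, 2 and 4 and KO day 3 replicate 3 (4.63). It was thus tested mainly through the group in which it was called higher, and the p-value does not allow for that. The WT difference at day 1 was 0.93 ± 0.42 (adjusted p = 0.0554), and the difference between the genotypes' responses did not pass.

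Mmp13, Mmp9 and Mmp8 varied widely within groups. Mmp13, collagenase-3, which bone cells and macrophages make, read 2.30, 6.64, 2.30 and 6.53 on WT sham arrays, 2.30, 6.22, 2.39, 2.30 and 8.13 at day 1, 6.73, 2.30, 4.04 and 3.94 at day 3, with 6.88, 7.29, 8.64 and 8.10 at day 7. On KO arrays it read 2.17, 2.17, 5.88 and 2.39 after sham surgery, 3.80, 3.87, 2.48 and 2.39 at day 1, 7.71, 4.36, 11.24, 5.19 and 6.55 at day 3, with 5.30, 4.34, 5.48 and 5.71 at day 7. Only at WT day 7 were all injured arrays above all sham arrays, and sham arrays themselves ranged from background to 6.64. The rise was 3.29 ± 1.34 at WT day 7 (adjusted p = 0.0368) and 3.86 ± 1.27 at KO day 3 (adjusted p = 0.00868). The WT call was lost without WT day 7 replicate 3 or 4 or WT sham replicate 1 or 3. The KO value was 2.80 without KO day 3 replicate 3, and 2.47 ± 1.16 (adjusted p = 0.0639) without the 5 arrays that stand apart.

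Mmp9, gelatinase B of neutrophils and osteoclasts, passed in none of the 6 comparisons, with differences from sham between -0.63 ± 0.46 at KO day 7 and 0.61 ± 0.46 at KO day 1. It read 6.26, 7.02, 5.82 and 6.29 on WT sham arrays and 6.82, 7.25, 6.72, 5.87 and 7.38 at day 1. At KO day 3 it read 6.66, 5.96, 8.91, 6.25 and 5.83, with replicate 3 far above the rest. Without the 5 arrays that stand apart Mmp9 was lower at KO day 7 (-0.68 ± 0.29, adjusted p = 0.0473). Mmp8, neutrophil collagenase, was under 4 on all sham arrays but 1, WT sham replicate 2 at 4.42. Its rise passed at KO day 3 (2.64 ± 0.51, at least 2.33-fold, adjusted p = 4.75e-05) and KO day 7 (1.58 ± 0.54, at least 1.18-fold, adjusted p = 0.0153). In WT it was 1.21 ± 0.54 at day 3 (adjusted p = 0.0497), lost in 26 of the 34 fits that left out 1 array, and 1.34 ± 0.54 at day 7 (adjusted p = 0.035), which fell to 0.78 without WT day 7 replicate 3 and was also lost without WT sham replicate 3 or 4.

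Several marker lists had the same highest arrays as these 3 genes. The array highest in the mean of the 3 bone genes above the filter was also highest in Mmp13 in 5 of 8 groups, in Mmp9 in 5 and in Mmp8 in 8. Some of these matches rank values within background. Mmp8 was under 4 on every KO sham and KO day 1 array, where the bone mean was 3.27 to 4.03 and 3.06 to 3.83. Among the 3 bone genes the overlap was uneven. The array highest in Ibsp, bone sialoprotein, was highest in Mmp13, Mmp9 and Mmp8 in 6 groups each, that of Omd in 2, 2 and 5, and that of Sp7 in 1 each. For the other 32 members the median with Ibsp was 2 groups and the largest 5, for Mmp23. The array highest in the mean of the neutrophil genes was highest in Mmp13 in 5 groups, in Mmp9 in 5 and in Mmp8 in 7, where the median of the other members was 2 and the largest 4. For red blood cell markers the counts were 4, 5 and 5, for fibroblast and meninges markers 3, 4 and 5, and for skeletal muscle markers 5, 3 and 3. With the fibroblast and meninges markers other members matched as often or more, Mmp2 and Mmp23 in 6 groups and Timp1, Mmp12 and Adamts9 in 5. In the lists of the other cell types measured the counts of Mmp13, Mmp9 and Mmp8 were at most 2. Of 12 neutrophil genes, 10 were on the array and 7 above the filter, and Elane, Cxcr2 and Cd177 were not. Their mean ran from 7.15 to 8.99 in WT sham and 6.66 to 8.11 in KO sham, and from 6.35 to 9.89, 6.19 to 9.05 and 7.31 to 10.43 in WT and 7.43 to 7.83, 7.44 to 11.04 and 7.24 to 8.42 in KO at days 1, 3 and 7. Of 10 bone genes, a list added after the values were seen, 7 were on the array and 3 above the filter (Ibsp, Sp7 and Omd), and Ifitm5, Mepe, Alpl and Smpd3 were not. The mean of these 3 ran from 3.15 to 5.03 and 3.27 to 4.03 in WT and KO sham, from 3.13 to 5.30, 3.37 to 5.49 and 4.94 to 6.12 in injured WT, and from 3.06 to 3.83, 3.76 to 6.67 and 3.92 to 4.32 in injured KO. With the bone mean as a covariate, added after the data were seen, Mmp13 at KO day 3 was 1.88 ± 0.68 (adjusted p = 0.0172) and at WT day 7 1.00 ± 0.73 (adjusted p = 0.253). With the same covariate Mmp9 passed at KO day 1 (0.74 ± 0.31, adjusted p = 0.0447), KO day 7 (-0.93 ± 0.31, adjusted p = 0.0133) and WT day 7 (-0.81 ± 0.33, adjusted p = 0.0366), and Mmp8 at WT day 7 was 0.74 and lost.

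**Figure D4:**
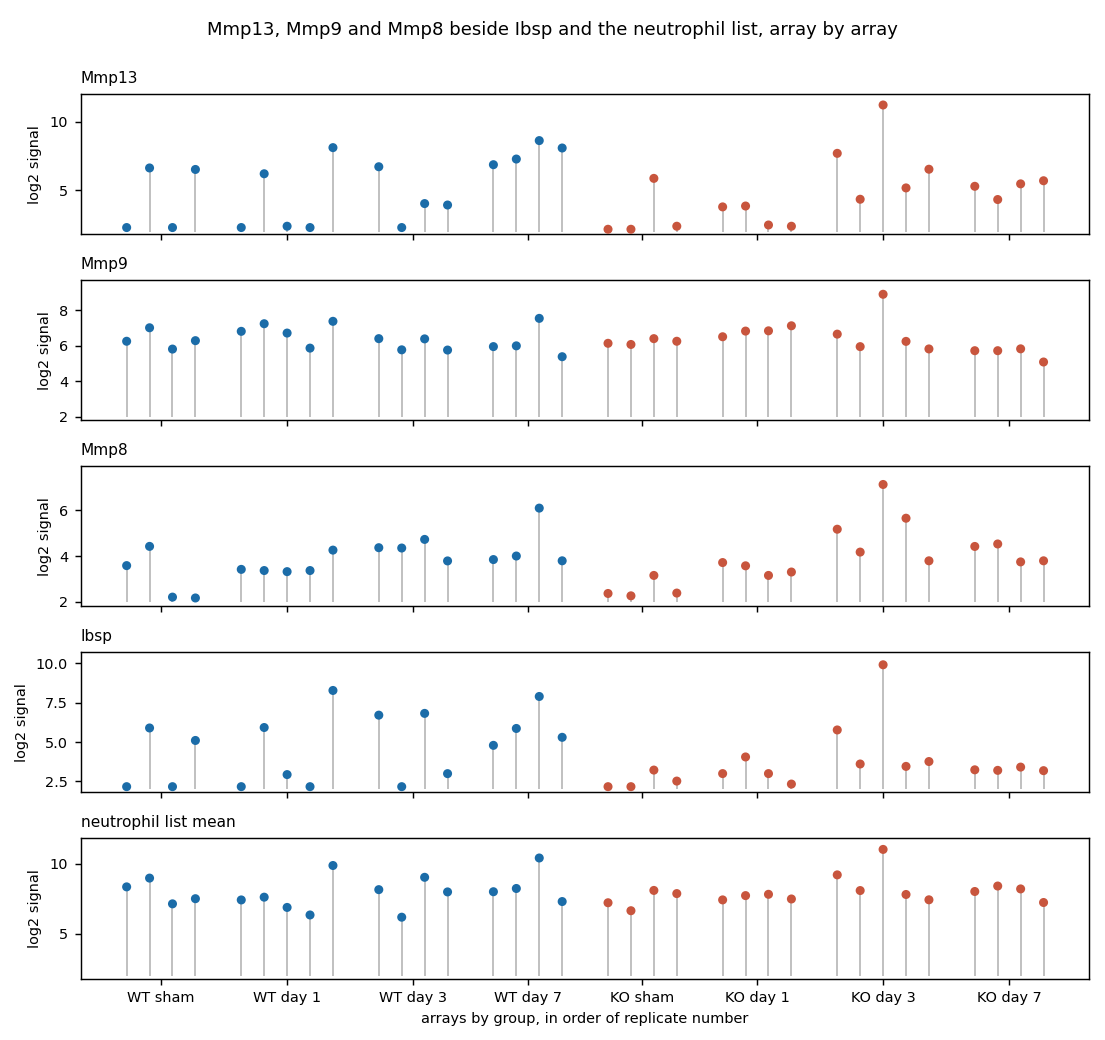
Log2 levels of Mmp13, Mmp9, Mmp8 and Ibsp and the mean of the neutrophil marker genes, array by array within the 8 groups. Each stalk is 1 array. KO day 3 replicate 3 is the highest array of its group in all 5 panels, at 11.24, 8.91, 7.12, 9.91 and 11.04.

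Mmp17, an MMP held by a lipid anchor and found in neurons, fell. It read 5.99, 6.32, 6.36 and 6.37 on WT sham arrays and 5.20 to 5.53, 5.31 to 5.84 and 4.58 to 5.53 at days 1, 3 and 7, with no overlap. The differences were -0.87 ± 0.18, -0.69 ± 0.19 and -1.09 ± 0.19 in WT and -1.12 ± 0.18 and -0.81 ± 0.19 in KO at days 3 and 7. At KO day 1 it was -0.42 ± 0.19 (adjusted p = 0.0731).

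Of the 10 ADAMs tested, 6 rose and 1 fell at day 1, 6 rose and 4 fell at day 3 in each genotype, and at day 7 5 rose and 4 fell in WT and 5 rose and 3 fell in KO. The rises are 60%, 60% and 50% of the family in each genotype, where 23.5% to 30.9% of all genes rose. The falls at day 3 are 40%, near the 37.4% and 38.8% of all genes that fell. Adam8, a sheddase of leukocytes and activated glia, made the largest rise. On WT arrays it read 2.65, 3.60, 2.60 and 2.68 after sham surgery, 8.17, 8.03, 7.58, 8.49 and 7.63 at day 1, 9.02, 9.29, 8.995 and 8.38 at day 3, with 8.41, 7.49, 7.73 and 8.26 at day 7. On KO arrays it read 3.67, 3.07, 3.26 and 3.02 after sham surgery, 8.02, 7.90, 7.48 and 7.94 at day 1, 8.84, 8.65, 9.75, 10.13 and 8.58 at day 3, with 8.33, 8.09, 8.02 and 8.31 at day 7. It was under 4 on all 8 sham arrays and above 7.4 on all injured arrays. The rise was 5.10 ± 0.28, 6.04 ± 0.29 and 5.09 ± 0.29 in WT (at least 15.8-, 30.3- and 15.7-fold, adjusted p = 3.02e-16 at day 3) and 4.58 ± 0.29, 5.94 ± 0.28 and 4.93 ± 0.29 in KO (at least 14.3-, 36.5- and 18.2-fold).

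Adam12, meltrin alpha of mesenchymal cells, read 4.06, 4.35, 4.66 and 4.30 on WT sham arrays, 6.51, 6.45, 6.41, 7.08 and 6.49 at day 1, 6.44, 7.07, 7.18 and 5.94 at day 3, with 6.47, 5.14, 5.71 and 7.52 at day 7. Sham and injured arrays did not overlap in either genotype, and the spread was widest at WT day 7. The rises were 2.24 ± 0.34, 2.31 ± 0.36 and 1.87 ± 0.36 in WT (4.74-, 4.97- and 3.65-fold) and 2.23 ± 0.36, 2.30 ± 0.34 and 1.77 ± 0.36 in KO. The mean of 7 genes of fibroblasts and meninges, all above the filter, ran from 6.37 to 9.15 and from 6.40 to 9.07 in WT and KO sham. In WT it ran from 8.93 to 9.68, 9.71 to 10.79 and 9.98 to 11.67 at days 1, 3 and 7, and in KO from 7.51 to 9.06, 9.69 to 11.61 and 10.37 to 10.81. At day 1, where Adam12 had risen, the marker mean overlapped with sham in both genotypes, and at days 3 and 7 it was above every sham array in both genotypes, as Mmp2 was at day 7. The part of these cells in the levels of Adam12 and Mmp2 was not tested.

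Adam17, the enzyme that sheds tumour necrosis factor and ligands of the EGF receptor, rose at every time. It read 8.10, 8.07, 8.44 and 8.41 on WT sham arrays, 8.57 to 9.06 at day 1, 8.96 to 9.69 at day 3 and 9.66 to 9.97 at day 7. The rises were 0.53 ± 0.13, 1.19 ± 0.14 and 1.57 ± 0.14 in WT (1.44-, 2.28- and 2.98-fold) and 0.37 ± 0.14, 1.56 ± 0.13 and 1.41 ± 0.14 in KO (1.29-, 2.96- and 2.66-fold). Adam10, the sheddase of Notch and the amyloid precursor protein, rose by 0.57 ± 0.08, 0.86 ± 0.08 and 0.81 ± 0.08 in WT and 0.26 ± 0.08, 0.85 ± 0.08 and 0.73 ± 0.08 in KO, which is at most 1.81-fold. Adam9, a broad sheddase, rose by between 0.82 ± 0.09 and 1.28 ± 0.09 in the 6 comparisons. Adam15 rose at days 1 and 3 in both genotypes, by 0.40 to 0.53, and did not pass at day 7. Its WT call at day 1 was lost without WT day 1 replicate 1 or WT sham replicate 1. The KO calls at day 1 were marginal for Adam17 (adjusted p = 0.0281, lost without KO day 1 replicate 1 or 2, KO sham replicate 1 or 3 or the library labelled KO sham replicate 2) and Adam10 (adjusted p = 0.0119, lost without KO day 1 replicate 1 or the library labelled KO sham replicate 2).

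Members of the family that fell included Adam11, Adam22 and Adam23, which lack a working active site and sit at neuronal surfaces, where Adam22 and Adam23 bind the secreted protein Lgi1. Adam22 read 10.03, 10.003, 10.07 and 9.91 on WT sham arrays, 9.09 to 9.64 at day 1, 8.75 to 9.37 at day 3 and 9.35 to 9.54 at day 7. Its differences were -0.67 ± 0.17, -0.92 ± 0.18 and -0.56 ± 0.18 in WT and -0.59 ± 0.18, -1.08 ± 0.17 and -0.51 ± 0.18 in KO, with no overlap of arrays. Adam23 differed by -0.83 ± 0.14 and -0.67 ± 0.14 in WT and by -1.15 ± 0.13 and -0.73 ± 0.14 in KO at days 3 and 7, and did not pass at day 1. Adam11 fell at day 3 in both genotypes (-0.94 ± 0.20 in WT) and at day 7 in WT. The mean of the neuronal marker genes was lower on every injured array than on any sham array. It covers the 8 of 10 genes above the filter (Chat and Slc5a7 were not), and the genes are not given one by one. The mean ran from 12.97 to 13.04 in WT sham and 12.97 to 13.07 in KO sham. In WT it ran from 12.08 to 12.65, 11.74 to 12.22 and 12.19 to 12.31 at days 1, 3 and 7, in KO from 12.34 to 12.70, 11.10 to 12.30 and 12.33 to 12.38, and its part was not tested. Adam19, meltrin beta, did not pass at day 1 and fell at days 3 and 7, by 0.43 ± 0.11 and 0.55 ± 0.11 in WT and 0.35 ± 0.10 and 0.80 ± 0.11 in KO.

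In the ADAMTS family 3 of 9 members rose at day 1 in each genotype and 3 fell, 33.3% each, beside the shares of all genes that rose (27.1% in WT, 23.7% in KO) and fell (32.5% and 27.3%). The risers were Adamts1, Adamts5 and Adamts9, which cut aggrecan and versican. Adamts1 read 7.26, 6.96, 7.82 and 6.87 on WT sham arrays, 10.55, 10.12, 10.21, 10.46 and 10.47 at day 1, 9.05, 10.48, 9.65 and 8.87 at day 3, with 8.61, 8.07, 8.40 and 9.01 at day 7. On KO arrays it read 7.65, 7.30, 7.62 and 7.49 after sham surgery, 10.60, 10.16, 9.66 and 10.22 at day 1, 8.96, 9.07, 9.83, 9.99 and 8.89 at day 3, with 8.42, 8.27, 8.34 and 8.21 at day 7. Injured arrays lay above sham arrays throughout, and most at day 1. The rise was 3.13 ± 0.26, 2.28 ± 0.28 and 1.29 ± 0.28 in WT (8.78-, 4.87- and 2.45-fold, adjusted p = 8.20e-11 at day 1) and 2.65 ± 0.28, 1.83 ± 0.26 and 0.79 ± 0.28 in KO (6.27-, 3.57- and 1.73-fold). The KO call at day 7 was lost without the library labelled KO sham replicate 2, at 0.72.

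Adamts5, the main aggrecanase of cartilage, read 6.81, 7.02, 7.28 and 7.07 on WT sham arrays and 9.03, 8.90, 8.56, 9.19 and 8.66 at day 1. It rose by 1.82 ± 0.24 and 1.42 ± 0.25 in WT and 1.49 ± 0.25 and 1.02 ± 0.24 in KO at days 1 and 3, and did not pass at day 7 (0.54 ± 0.25, adjusted p = 0.0652, in WT). Adamts9 rose by 1.95 ± 0.32 and 1.32 ± 0.33 in WT and 1.75 ± 0.33 and 1.18 ± 0.32 in KO at those days. Its WT call at day 7 (0.79 ± 0.33, adjusted p = 0.0412) was lost without WT day 7 replicate 1, 3 or 4 or WT sham replicate 1, 2 or 4, at 0.69 to 0.84. WT day 3 replicate 2 was high in Alas2 and low in neutrophil, macrophage and astrocyte markers. On it Adamts1, Adamts5 and Adamts9 read 10.48, 9.53 and 7.81, above the other 3 arrays of the group. The mean of 6 endothelial marker genes ran from 5.56 to 5.80 in WT sham, 6.88 to 7.29 at day 1, 7.36 to 8.45 at day 3, with this array highest, and 5.31 to 7.20 at day 7, and its part was not tested. Adamts4, another aggrecanase, passed only at KO day 3 of the 6 comparisons (-0.43 ± 0.13, adjusted p = 0.00315), where the arrays overlapped with sham.

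Adamts20, a close relative of Adamts9 that cuts versican, went down and came back. It read 9.52, 9.51, 9.42 and 9.32 on WT sham arrays, 7.71, 8.23, 8.13, 7.94 and 8.19 at day 1, 8.89, 8.39, 8.93 and 8.93 at day 3, with 9.64, 9.90, 9.82 and 9.75 at day 7. In KO it read 9.36 to 9.51, 7.81 to 8.07, 8.12 to 9.17 and 9.38 to 9.66. Day 1 arrays were below every sham array, and WT day 7 arrays above them. The differences were -1.40 ± 0.14, -0.66 ± 0.14 and 0.34 ± 0.14 in WT (adjusted p = 1.21e-09, 0.000228 and 0.0447) and -1.52 ± 0.14, -0.75 ± 0.14 and 0.08 ± 0.14 in KO. The rise at WT day 7 was lost without WT day 7 replicate 2, 3 or 4 or any 1 of the 4 WT sham arrays, at 0.29 to 0.36. Adamts3, a procollagen N-proteinase that also cuts reelin, read 7.04, 7.16, 6.91 and 6.62 on WT sham arrays and 5.48 to 6.03 at day 3, and 6.95 to 7.08 and 4.90 to 6.01 in KO. It differed by -0.84 ± 0.17, -1.19 ± 0.18 and -0.95 ± 0.18 in WT and -0.71 ± 0.18, -1.62 ± 0.17 and -1.15 ± 0.18 in KO, the largest fall of any member at KO day 3 (3.07-fold). Adamts16 was near background, at 4.08 to 4.92 in WT sham, and was lower at days 1 and 3, at -1.11 ± 0.23 and -0.92 ± 0.25 in WT. Adamts12, which cuts cartilage oligomeric matrix protein, was under 4 on all sham, day 1 and WT day 3 arrays and read 6.22, 2.91, 4.54 and 6.86 at WT day 7 and 4.69, 3.79, 5.19 and 3.80 at KO day 7. Its rise at day 7 was 2.55 ± 0.51 in WT (at least 2.65-fold) and 1.75 ± 0.51 in KO (at least 1.39-fold). Adamts12 passed the filter on just 6 arrays. They were WT day 7 replicates 1, 3 and 4, KO day 7 replicates 1 and 3 and KO day 3 replicate 4 (4.92). It was thus tested mainly through the groups in which it was called higher, and the calls do not allow for that.

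The members also differed in when they were highest. Among 22 members that rose on any day in WT, 5 had their highest mean at day 1, namely Timp1, Mmp19, Adamts1, Adamts5 and Adamts9. A further 7 were highest at day 3, Adam8 and Adam12 among them, and 10 at day 7, Mmp2, Mmp12, Mmp14, Adam17 and Timp3 among them. In KO 4, 13 and 5 of 22 were highest at days 1, 3 and 7. Timp1 and Mmp19 were highest at day 3 in KO, and in WT they were nearly as high at day 3 as at day 1. The days on which all genes that rose were highest were not counted, so this timing is not shown to be particular to the members. Compared directly over both genotypes, 13 members were higher and 10 lower at day 3 than at day 1, where 26.1% and 34.3% of all genes were. With only the groups compared in the fit, 5 rather than 10 were lower. The largest rises were in Mmp2 (1.91 ± 0.29), Mmp12 (1.56 ± 0.42), Mmp8 (1.25 ± 0.36) and Adam8 (1.15 ± 0.20), and the largest falls in Mmp3 (-0.88 ± 0.29), Adamts1 (-0.83 ± 0.19) and Adam11. From day 3 to day 7, 12 rose and 10 fell, beside 24.8% and 21.3% of all genes. After Mmp12, the rises were led by Adamts12 (1.38 ± 0.35), Mmp2 (0.92 ± 0.29) and Adamts20 (0.91 ± 0.10). Adamts12 passed the filter mainly through day 7 arrays. After Timp1, the falls were led by Adamts1 (-1.02 ± 0.19), Adam8 (-0.98 ± 0.20) and Mmp19 (-0.97 ± 0.15).

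Whether loss of trkB.T1 changed the families was asked by comparing KO with WT at each time. By limma with adjustment over all genes, 0 of 35 members passed in sham cord or at day 1, 3 or 7, where 0.0667%, 0.859%, 0.0334% and 0.0334% of all genes did. At an unadjusted p under 0.05 the counts were 0, 2, 6 and 2. No share of all genes at that cut is given, so these counts do not show a genotype difference in the families. In sham cord the smallest p were those of Timp3 (0.32 ± 0.16), Adamts16 and Adam8. The lowest adjusted p of a member was 0.333, for Adam10 at day 1 (-0.21 ± 0.08), followed by Mmp19 (-0.49 ± 0.21) and Adam19 (-0.20 ± 0.10). At day 3 the members with the smallest p were Mmp17 (-0.55 ± 0.18, adjusted p = 0.349), Adamts4 (-0.31 ± 0.13) and Adam17 (0.32 ± 0.13), and at day 7 Adam19 (-0.28 ± 0.11, adjusted p = 0.938) and Mmp14 (-0.60 ± 0.24). The 95% interval of the difference lay within 2-fold either way for 30 members in sham cord and for 29, 28 and 26 at days 1, 3 and 7. Those with wider intervals were Mmp8, Mmp12, Mmp13 and Adamts12 at every time, and at some times Mmp2, Mmp3, Mmp9, Mmp14 and Adamts9.

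The genotypes' responses to injury were also compared directly. Of 35 members, 0 passed at days 1, 3 and 7, where 0.142%, 0% and 0.00834% of all genes did. The unadjusted counts were 2, 1 and 0, again with no share of all genes beside them. The Timp3 rise at day 1 was 0.61 ± 0.23 smaller in KO (95% interval -1.07 to -0.14, adjusted p = 0.546), and 0.72 ± 0.23 smaller without the library labelled KO sham replicate 2 (adjusted p = 0.292). That library had the lowest Timp3 of the KO sham arrays, 9.49 against 9.88 to 10.02. Markers of Schwann cells and nerve roots were split alike: the mean of the 3 of 5 on the array (Pmp2, Egr2 and Ncmap) was 6.07, 3.71, 6.79 and 7.27 on KO sham replicates 1 to 4 and 3.76 to 4.39 on WT sham arrays. At day 1 it was 6.46 to 7.67 in WT and 5.53 to 7.41 in KO, and its part was not tested. The Mmp13 difference at day 3 was 4.04 ± 1.85 (95% interval 0.25 to 7.84, adjusted p = 0.702), and it was 2.01 ± 1.64 without the 5 arrays that stand apart. For Timp1, whose WT and KO rises at day 1 were 8.06 and 8.02, and for Adam8 no difference between genotypes passed. The 95% interval of the difference in response lay within 2-fold either way for 19, 22 and 21 members at days 1, 3 and 7, so with 4 or 5 arrays a group a 2-fold difference could be missed for the others.

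**Figure D5:**
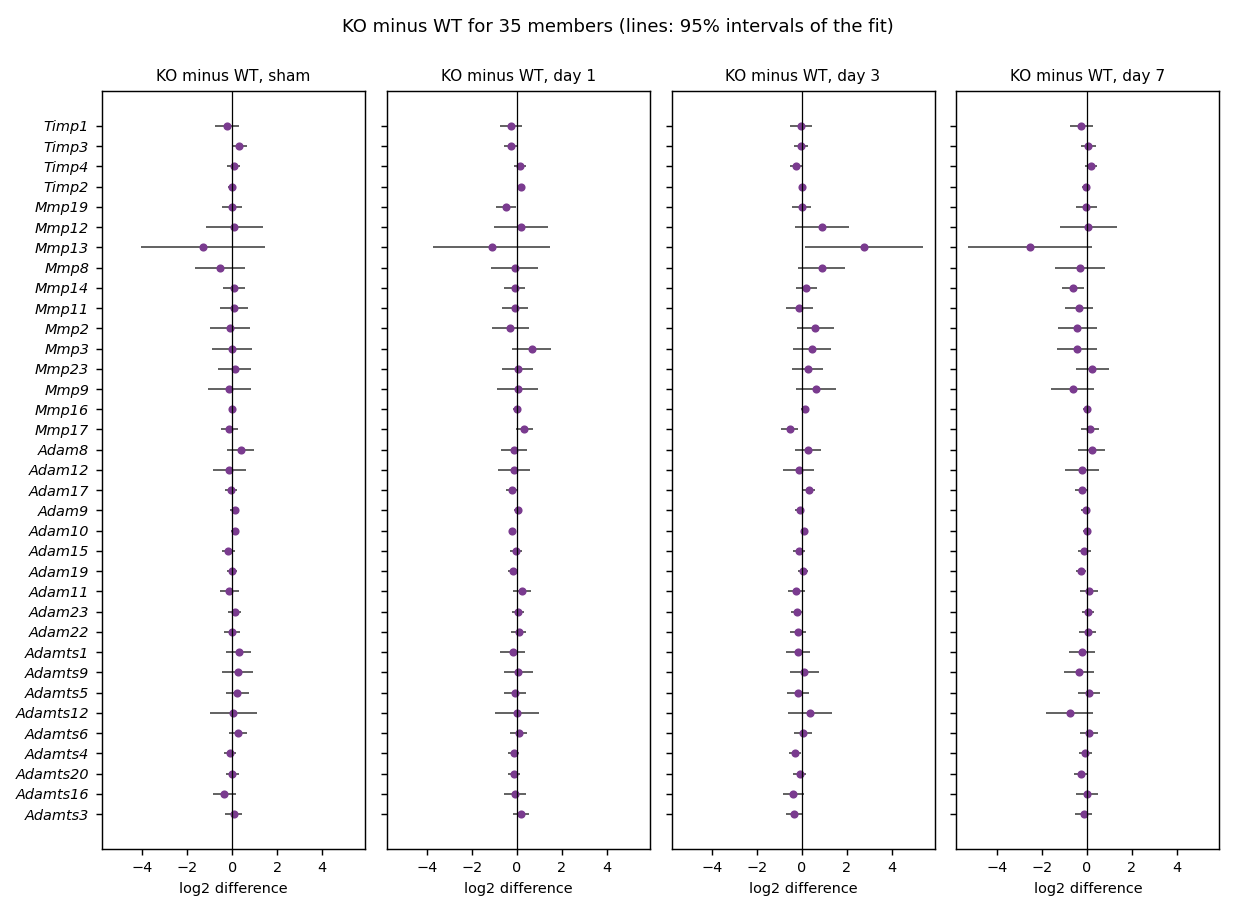
KO minus WT log2 difference of the 35 tested members with its 95% interval, in sham cord and at days 1, 3 and 7. No member passed after adjustment at any of the 4 times, and the widest intervals are those of Mmp13.

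Genes that activate, bind or restrain metalloproteinases moved as well. Of 32 such genes listed with the members in mind, 30 were on the array and 23 were tested. In WT 12 rose and 4 fell at day 1, and 15 rose and 3 fell at days 3 and 7. In KO the counts were 12 and 4, 15 and 3, and 13 and 3. The shares that rose were 52.2%, 65.2% and 65.2% in WT and 52.2%, 65.2% and 56.5% in KO, where 23.5% to 30.9% of all genes rose, and 13% to 17.4% fell, where 27.3% to 38.8% of all genes did. Tfpi2, a serine protease inhibitor of the matrix, rose most at day 1, by 4.97 ± 0.54 in WT and 5.31 ± 0.57 in KO. Lcn2, the neutrophil and astrocyte lipocalin that binds MMP9, rose by 4.22 ± 0.54 and 4.91 ± 0.57. Cd44, the hyaluronan receptor that holds MMPs at the cell surface, rose by 3.01 ± 0.15 and 2.97 ± 0.16. Plau, the urokinase that makes plasmin, did not pass at day 1 and rose by 3.53 ± 0.33 in WT and 3.69 ± 0.33 in KO at day 7. Bmp1 and its enhancer Pcolce, which process procollagen, rose by 2.73 ± 0.20 and 2.14 ± 0.62 at WT day 3. The testicans Spock1, Spock2 and Spock3, proteoglycans of neurons, fell at days 3 and 7 in both genotypes, Spock3 by 1.62 ± 0.25 at WT day 3 and 1.89 ± 0.24 at KO day 3. Between genotypes 0 of the 23 passed by limma in sham cord or at day 1, 3 or 7. An unadjusted p under 0.05 was reached by 1, 1, 2 and 1, with no share of all genes beside them.

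Among the members with more than 1 probe set above the filter, 83 calls could be set against another probe set. In 62 of them another passed in the same direction, and in 2, both of Timp2 at day 3, another passed in the opposite one. In the remaining 21 no other probe set passed, 9 of them between days. The 12 against sham were those of Adam10 and Adam17 at KO day 1, Adam15, Adamts4 and Timp4 at KO day 3, Adamts9 at WT day 7, Adam19 at days 3 and 7 in both genotypes and Adam22 at day 7 in both. The 30 members left out for low signal were 18 ADAMs, 6 ADAMTSs and 6 MMPs. They were Adam1a, Adam1b, Adam2, Adam3, Adam4, Adam5, Adam6a, Adam6b, Adam7, Adam18, Adam21, Adam24, Adam25, Adam26a, Adam28, Adam32, Adam33 and Adam34, with Adamts7, Adamts8, Adamts10, Adamts15, Adamts18 and Adamts19, and Mmp1a, Mmp1b, Mmp7, Mmp10, Mmp20 and Mmp24. Of these Mmp24, an MMP of neurons, came nearest, with 2 arrays above 4 and a highest value of 4.23, and Adamts15 had 1. These genes are not shown to be unexpressed, since the array cannot measure below its background.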

How the data were processed

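Per the labels, total RNA of spinal cord was extracted with Trizol and hybridised as biotinylated cRNA. The deposited values are log2 probe set levels. The submitters' processing notes name GCRMA as the authors' tool, its version not given in the sources used here. GCRMA corrects background by probe GC content, normalises by quantiles and summarises by median polish, so low values pile up near a floor. Values ran from 2.17 to 15.9, with array medians from 4.138 to 4.391, and were used as deposited. Arrays have no read depth, so their number and the signal over background limit the precision.

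The array's 45101 probe sets comprised 64 controls, 34945 with 1 gene symbol, 932 with several and 9160 with none. 5 probe sets with several symbols, a member's among them, were not used. Each gene took its probe set with the highest mean and was tested if at least 4 arrays read over log2 4. Groups came from the labels. One linear model over all 8 groups was fitted in R 4.3.3 with limma 3.58.1 (lmFit, eBayes), with 15 comparisons, Benjamini-Hochberg adjustment over 11993 genes and a threshold of 0.05. The fit was tested on simulated data. The members and lists were chosen with earlier results of these data known. Named were 20 listed members, of which Mmp10 was not above the filter, the 5 largest rises and falls of each injury comparison, the 3 smallest p of each genotype or response comparison, and the 5 largest rises and falls between days. Not all values so selected are printed. Left out are Adam10 and Mmp17 (response at day 1), Adam17 and Mmp8 (response at day 3) and Adam19, Adamts20 and Mmp14 (response at day 7). Mmp13 in KO minus WT at day 7 and some changes between days are also left out. Other members named were chosen after their values were seen. Replicate numbers were not used to pair samples in the main fit. In 0 of 28 pairs of groups did all same-numbered arrays deviate together (correlations over 0.1). The mean correlation of same-numbered arrays ran from -0.17 to 0.32 over the pairs of groups. This cannot exclude a pairing or a batch shared by some arrays. Promoters are from RefSeq, GRCm38.p6. The array files name no build.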

Additional observations from a re-analysis of the deposited data

Results flagged for a closer look

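Of 232 groups of 4 or 5 arrays tested over 29 named members, 20 had 1 array far from the rest of its group. A chance count of about 11.6 holds only for independent, normally spread values. Some flagged values lie within background and some share an array, so an excess over chance is not shown. Several of the flagged groups are of Mmp8, Mmp9 and Mmp13, on arrays high in neutrophil or bone markers. Mmp9 read 8.91 on KO day 3 replicate 3, where the others were at most 6.66, and 5.09 on KO day 7 replicate 4, below the others. Mmp8 was highest at 4.26 on WT day 1 replicate 5, at 6.09 on WT day 7 replicate 3 and at 3.15 on KO sham replicate 3. Mmp13 was highest at 5.88 on the same KO sham array, where the others were at most 2.39.

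On WT day 3 replicate 2, high in Alas2 and low in neutrophil, macrophage and astrocyte markers, Timp4 was far above the rest at 12.05. Adamts20 was far below at 8.39 on the same array. On WT day 1 replicate 4, Adam12 was highest at 7.08 and Timp4 lowest at 10.37. On WT sham replicate 3, Timp1 was highest at 3.61, Timp3 highest at 9.997 and Adamts12 lowest at 2.29.

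On WT sham replicate 1, Mmp17 was lowest at 5.99 and Mmp19 lowest at 2.61. Adam8 was highest on WT sham replicate 2, at 3.60. Mmp17 was lowest on KO day 3 replicate 3, at 4.08. Mmp19 was lowest at 5.37 on WT day 7 replicate 2 and at 2.39 on KO sham replicate 4, and Adamts12 was lowest at 2.43 on KO sham replicate 1. Values under 4, such as those of Timp1, Adam8, Adamts12 and Mmp19 in sham cord, are within background.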

How the results depend on the processing

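Of 185 calls of members, 148 passed in the same direction under every setting tried. Counts of members stayed within 1.5 times of the main count without a filter on low signal, with values under 4 set to 4, with arrays centred on their median, without the 5 arrays that stand apart, and when any 1 of the 34 arrays was left out (782 counts). With only the groups compared in the fit, 8 members were lower at KO day 1, against 5, and 5 were lower at day 3 than at day 1, against 10. With array weights 8 were lower at KO day 1, and 1 member, Adam19, differed between genotypes at day 7 (-0.35, adjusted p = 0.0185). With the mean over a gene's probe sets, 1 member, again Adam19, differed between genotypes at day 1 (-0.43, adjusted p = 0.0201), and Timp2 at day 3 turned to 0.0393 in WT and 0.0214 in KO. The report gives the opposing Timp2 probe set. With the replicate number as a block (whether the numbers pair samples is not in the labels), all 23 counts stayed within 1.5 times. Of 242 member values 237 kept their side of the threshold, 4 were lost and 1 gained. Mmp8, Mmp13, Adamts9 and Adamts20 in WT, and Mmp14 and Adam17 at KO day 1, rest on few arrays. Low signal limits Mmp3, Mmp8, Mmp12, Mmp13, Adamts12 and Adamts16, whose sham or injured levels are partly background. The cause of these changes was not tested.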
